A study of Mus musculus with 6 samples.

Results

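The genes described here encode 8 proteins of the acute-phase and neutrophil response: the orosomucoids Orm1, Orm2 and Orm3, serum amyloid A3 (Saa3), lipocalin 2 (Lcn2), haptoglobin (Hp) and the calcium-binding proteins S100a8 and S100a9. They were taken by gene symbol from the count table of each library, and all 8 of 8 were found among 24421 symbols. The choice was made with the levels of these genes in the same 2 groups already known, so their differences between the groups are given as a description and were not tested. The study compared mouse samples of the C57BL/6N strain, labelled as whole embryos of embryonic day 9.5, that were either wild type (3 libraries) or homozygous for a knockout of Lphn2 (3 libraries, genotype label Lphn2 KO). Latrophilin-2, the product of Lphn2, is a receptor of the adhesion class that the series title describes as a surface marker of cardiac progenitor cells, and the official symbol of the gene is Adgrl2. No treatment is given for either group. The sources used here give neither the deleted part of the allele nor litter, sex or the number of embryos behind a library, so the spread between libraries may be partly technical.

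Acute-phase proteins are plasma proteins whose synthesis changes in inflammation, mainly in the liver. Their synthesis is controlled by glucocorticoids and by interleukin-6 and interleukin-1, the interleukins acting through STAT3, C/EBP and NF-kB transcription factors. Orosomucoids, or alpha-1-acid glycoproteins, are carriers of lipophilic molecules with the lipocalin fold, and haptoglobin binds free haemoglobin. Lipocalin 2 withholds iron from bacteria by binding siderophores, and serum amyloid A3 is the family member made chiefly outside the liver. S100a8 and S100a9 usually occur together as the heterodimer calprotectin, which fills the cytosol of neutrophils, but S100a8 is also transcribed at the implantation site, and mouse embryos without S100a8 are resorbed early in gestation.

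The 3 orosomucoid genes lie near each other on chromosome 4 of mm10 (GENCODE M21), all on the plus strand: Orm1 at 63344560 to 63348163, Orm3 at 63356162 to 63359511 and Orm2 at 63362449 to 63365878. Orm1 and Orm3 are 7998 bases apart, with Gm11212 annotated between them. Orm3 and Orm2 are 2937 bases apart, with no annotated gene between them. The coding sequences of Orm1 and Orm2 were identical in 89.9% of aligned bases, those of Orm1 and Orm3 in 86% and those of Orm2 and Orm3 in 87.9%. The last 60 coding bases before the stop codon show how alike the 3 copies are where 3' tags begin to fall. Capitals mark the 6 positions at which the 3 genes are not all the same.
Orm1: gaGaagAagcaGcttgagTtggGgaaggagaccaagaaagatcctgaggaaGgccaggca
Orm2: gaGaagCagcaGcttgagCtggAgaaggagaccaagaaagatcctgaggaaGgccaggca
Orm3: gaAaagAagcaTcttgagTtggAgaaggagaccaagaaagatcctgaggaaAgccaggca
Of the 50-base words in the last 300 transcript bases, 58.6% in Orm1, 65.3% in Orm2 and 10.4% in Orm3 also occurred in another gene, against 0 of 251 words in each of the other 5 genes. The genes sharing words with Orm2 included Gm11212. The handling of reads that match several places is not given in the sources used here, so the split among Orm1, Orm2 and Orm3 is uncertain. Their sum is the safer value, but it leaves out any reads placed at Gm11212.

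Promoter windows of 250 bases before the transcription start were found in RefSeq (GRCm38.p6, the assembly of mm10) for 6 of the 8 genes. The windows of Orm2 and Orm3 are shown because these neighbours were both low in the knockout, and those of S100a8 and S100a9 because these neighbours differed in opposite directions. Each is written 5′ to 3′ on the strand of its gene, and capitals mark a match to a C/EBP motif (TTGCNNAA) or a TATA box (TATAAA), searched on both strands.
Orm3 (plus strand, chr4:63355908-63356157): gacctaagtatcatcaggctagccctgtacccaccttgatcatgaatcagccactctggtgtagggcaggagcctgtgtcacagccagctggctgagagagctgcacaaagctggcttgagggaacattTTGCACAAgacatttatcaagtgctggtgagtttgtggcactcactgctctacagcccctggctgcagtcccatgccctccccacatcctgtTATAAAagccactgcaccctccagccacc
Orm2 (plus strand, chr4:63362199-63362448): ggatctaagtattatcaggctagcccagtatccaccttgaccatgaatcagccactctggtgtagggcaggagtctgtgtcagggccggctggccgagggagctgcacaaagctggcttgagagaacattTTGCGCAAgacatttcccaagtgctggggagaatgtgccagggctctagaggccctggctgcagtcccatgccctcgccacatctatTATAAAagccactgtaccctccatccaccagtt
S100a8 (plus strand, chr3:90668821-90669070): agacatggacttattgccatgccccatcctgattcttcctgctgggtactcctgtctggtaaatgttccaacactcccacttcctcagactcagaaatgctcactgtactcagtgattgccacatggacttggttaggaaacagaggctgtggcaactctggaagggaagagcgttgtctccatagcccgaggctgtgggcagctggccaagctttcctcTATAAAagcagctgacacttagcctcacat
S100a9 (minus strand, chr3:90695722-90695971): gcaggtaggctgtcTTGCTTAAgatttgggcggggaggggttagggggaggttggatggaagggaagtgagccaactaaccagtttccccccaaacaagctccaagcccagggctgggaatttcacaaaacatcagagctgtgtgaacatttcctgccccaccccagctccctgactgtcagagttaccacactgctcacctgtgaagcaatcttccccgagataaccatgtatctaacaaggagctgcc
The windows of Orm2 and Orm3 were identical in 85.5% of aligned columns, and both held a C/EBP match, which began 120 and 121 bases before the start. Such a match was present in 5 of the 6 windows (Orm2, Orm3, Saa3, Lcn2 and S100a9) and in 9.56% of all 32851 RefSeq windows of this length. The S100a8 window held none and carried a TATA box 30 bases before the start. A TATA box was found in 3 of the 6 windows (Orm2, Orm3 and S100a8) and in 12.4% of all windows. Motifs for STAT3 (TTCNNNGAA), NF-kB and steroid hormone receptors were found in 0 of the 6, against 7.02%, 4.11% and 0.387% of all windows. No 2 matches overlapped. These are matches of letters and not shown to be bound.

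The libraries were made from 3' ends of polyadenylated RNA, with totals of 18352150 to 36213611 counts in wild type and 14476809 to 23887717 in knockout. Levels are TMM-normalised CPM (counts scaled to a common library total), on which 1 count corresponds to 0.0261 to 0.0712 CPM. For Adgrl2 itself, wild type replicates 1, 2 and 3 gave 10.9, 7.55 and 15.9 CPM, and the 3 knockout replicates gave 5.48, 1.66 and 2.78 CPM. Tags from outside the deleted part may remain, so the genotype is not checked by them. The libraries held much maternal and placental RNA, while markers of the embryo proper were low. Summed over 15 markers each, decidual stroma genes reached 20577 to 36999 CPM in wild type against 7914 to 13633 CPM in knockout. That sum is mostly Prl8a2 and Erv3, and over the list 9 of 15 log2 fold changes were above 0 (median 0.89), with 3 lower and 8 higher at an unadjusted p under 0.05 and 0 called by edgeR. Trophoblast genes reached 2505 to 9843 CPM in wild type, and knockout replicates 1, 2 and 3 had 6265, 93.7 and 277 CPM. Erythroid genes, globins among them, summed over 12 markers to 5873 to 16638 CPM in wild type and 2387 to 3798 CPM in knockout. Genes of the embryo proper summed to 24.9 to 217 CPM and 8.92 to 15 CPM over 15 markers, and the cardiac factor Nkx2-5, picked after its values were seen, was at 0 to 0.522 CPM and had no count in the knockout. In such bulk libraries, fewer cells of a type and less RNA per cell cannot be told apart.

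Orosomucoid transcripts were the members that were scarcest in the knockout relative to wild type. For Orm1, the most abundant of them, wild type replicates 1, 2 and 3 held 52.5, 47.8 and 16.5 CPM, while the knockout replicates held 2.90, 2.60 and 3.63 CPM. The groups did not overlap, the knockout being the lower, and the wild type libraries spread far more widely than the knockout ones. The group means were 39 ± 19.6 and 3.04 ± 0.532 CPM (SD, n = 3 each), a log2 fold change of -3.68 ± 0.47 (SE), where fold changes are given as knockout over wild type from the edgeR fit. These values rest on 634 to 1452 counts per wild type library and 39 to 74 per knockout library.

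Orm2 and Orm3 had the same arrangement at lower levels. Orm2 stood at 10.2, 12.7 and 3.55 CPM in wild type, against 0.548, 0.533 and 0.641 CPM in the knockout (log2 fold change -3.93 ± 0.56 SE). Orm3 stood at 7.31, 11.1 and 3.91 CPM in wild type, against 0.157, 0 and 0.641 CPM in the knockout, where it was counted 4, 0 and 9 times (-4.84 ± 1.0 SE). The 0 counts of Orm3 in knockout replicate 2 allow up to 0.2 CPM, the level of 3 counts. For both genes, wild type replicate 3 was the lowest of its group and still above every knockout library. The size of the Orm3 difference rests on few counts: it was -6.26 without knockout replicate 3.

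Because the 3 orosomucoids share sequence, they were also summed. Wild type replicates 1, 2 and 3 had sums of 70, 71.6 and 24 CPM, and the knockout replicates had 3.60, 3.13 and 4.91 CPM. The relation of Orm1 to Orm2 changed less than the level, with 3.78 to 5.15 Orm1 counts per Orm2 count in wild type and 4.88 to 5.67 in knockout libraries. These 2 copies share many words, and the knockout values rest on 8 to 14 Orm2 counts. For Orm3, which shares fewer words, knockout replicates 1, 2 and 3 had 4, 0 and 9 counts beside 74, 39 and 51 of Orm1. In wild type these were 202, 183 and 150 beside 1452, 786 and 634. Among wild type libraries, replicate 3 had both the lowest orosomucoid sum and the lowest trophoblast sum (2505 CPM). Knockout replicate 1, whose trophoblast sum of 6265 CPM lay within the wild type range, had an orosomucoid sum as low as that of knockout replicates 2 and 3. Decidual prolactin Prl8a2, at 20546 ± 7226 CPM in wild type against 3167 ± 2039 CPM in knockout (SD, n = 3 each), and the yolk sac and fetal liver markers, at 452 to 692 CPM and 120 to 266 CPM summed over 16 genes, were also lower in every knockout library. Prl8a2 did not stand for its list: all knockout libraries lay below all wild type ones in 3 of the 15 decidual stroma markers (Prl8a2, Prl3c1 and Erv3) and above them in 7. The part of trophoblast, decidual, yolk sac or fetal liver cells in the orosomucoid values was not tested.

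**Figure D1:**
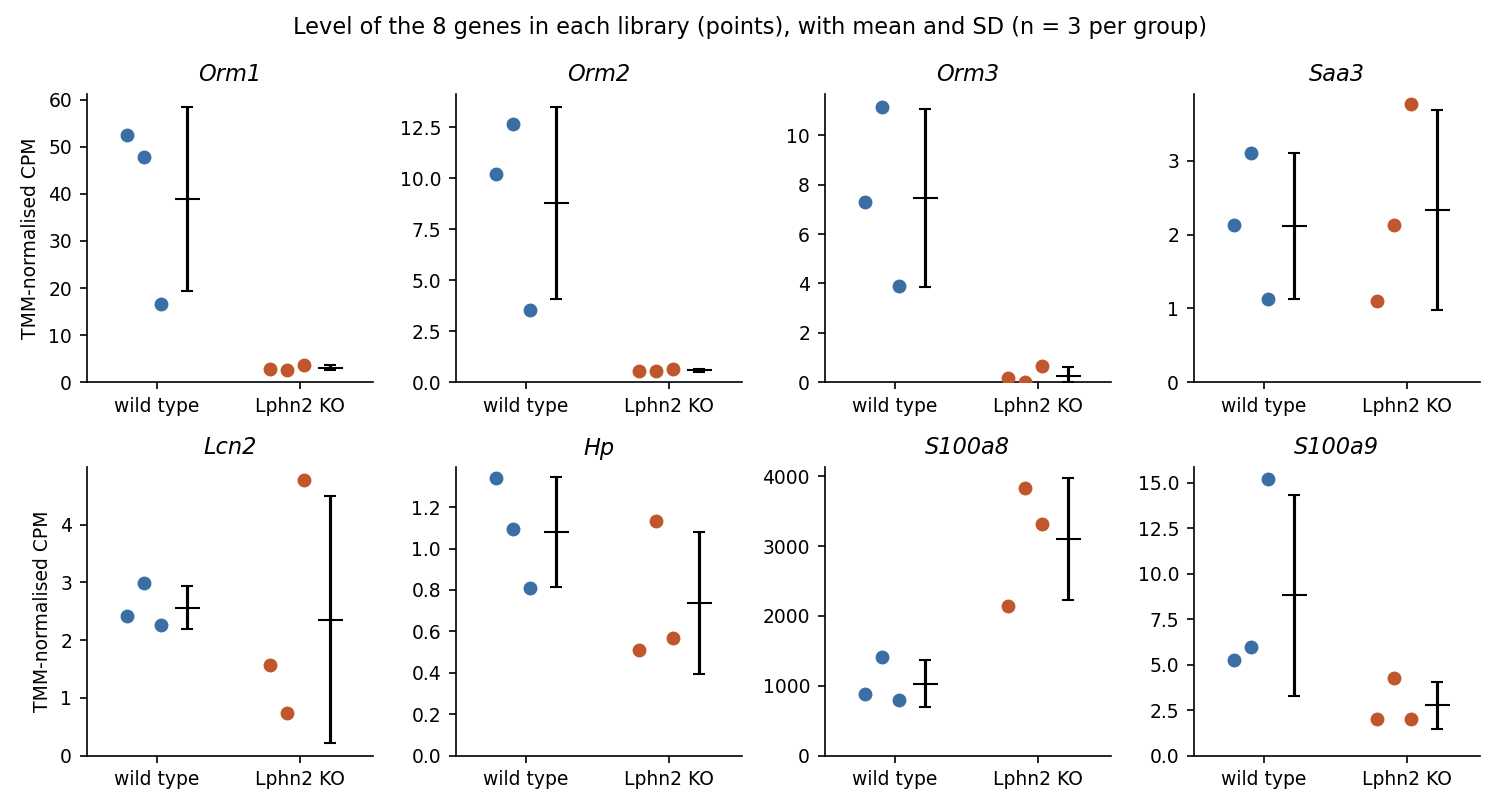
TMM-normalised CPM (vertical axes, linear from 0, a scale for each gene) of the 8 genes in the 3 wild type (blue) and 3 Lphn2 knockout (orange) libraries, each point a library, replicates 1 to 3 from left to right; the black dash is the mean and the bars are the SD (n = 3), with the lower bar ended at 0 for Orm3 in the knockout. The knockout points of Orm1, Orm2, Orm3 and S100a9 lie below all wild type points, those of S100a8 lie above, and those of Saa3, Lcn2 and Hp overlap.

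S100a8 was the one member that stood higher in every knockout library, and it was far more abundant than the others. Wild type replicates 1, 2 and 3 held 883, 1416 and 796 CPM of S100a8, and the knockout replicates held 2137, 3835 and 3322 CPM. The group means were 1032 ± 336 and 3098 ± 871 CPM (SD, n = 3 each), a ratio of 3.0 and a log2 fold change of 1.59 ± 0.32 (SE). Ordered by counts, S100a8 was symbol 109, 69 and 111 of the wild type libraries and symbol 33, 15 and 24 of the knockout libraries. The lowest knockout library, replicate 1, was the one with abundant trophoblast RNA. Wild type did not show this order, with trophoblast sums of 8701, 9843 and 2505 CPM in replicates 1, 2 and 3. There the highest and the lowest sum fell in the libraries with the highest and the lowest S100a8 level. The part of trophoblast in the S100a8 values was not tested.

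S100a9, the partner of S100a8 in calprotectin, did not share this pattern. Wild type replicates 1, 2 and 3 held 5.28, 5.96 and 15.2 CPM of it, and the knockout replicates held 2.04, 4.26 and 1.99 CPM, so the groups did not overlap and the knockout was the lower. The means were 8.81 ± 5.53 and 2.76 ± 1.30 CPM (SD, n = 3 each; log2 fold change -1.68 ± 0.54 SE). Wild type replicate 3 held the largest part of the wild type mean, and without it the log2 fold change was -1.04. The 6 counts of S100a9 were all multiples of 2, so the tags behind them may be fewer than the 28 to 582 counts show. Both S100a8 and S100a9 have 2 annotated transcripts, of which 1 is protein-coding for S100a8 and 2 for S100a9. The largest divisor common to the counts of S100a8 was 1. It was also 1 for Saa3 and Lcn2, which have 2 protein-coding transcripts each. The origin of the S100a9 divisor was not tested. A divisor above 1 was common to all libraries in 19.9% of the 11680 symbols with at least 10 counts in each.

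The 2 genes lie 22596 bases apart on chromosome 3 of mm10, S100a8 at 90668978 to 90670035 on the plus strand and S100a9 at 90692632 to 90695721 on the minus strand. In each library S100a8 outnumbered S100a9, by 167, 237 and 52.4 counts per count in wild type replicates 1, 2 and 3 and by 1049, 900 and 1667 in knockout replicates 1, 2 and 3. Every knockout ratio was above every wild type ratio. A library of this kind is read near the 3' end of each transcript, so counts were not divided by transcript length, and the annotated coding transcripts used here are of like length, 486 bases for S100a8 and 519 for S100a9.

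Genes of neutrophil granules were scarce beside S100a8. Of 25 other neutrophil markers with a symbol in the tables, 18 averaged under 1 CPM over the 6 libraries and Fpr1, a receptor for bacterial peptides, had no count in any. Elane, neutrophil elastase, was read only in wild type replicate 3, at 0.104 CPM, and so were the granule gene Camp, at 0.783 CPM, and Cebpe, a factor of granulocyte maturation, at 0.157 CPM. Ngp, neutrophilic granule protein, was read at 4.59 CPM in wild type replicate 3, at 0.0666 CPM in knockout replicate 2 and at 0 in the other 4 libraries. Mpo, myeloperoxidase, stood at 2.28, 2.50 and 9.50 CPM in wild type, against 0.118, 0.666 and 0.285 CPM in the knockout. The library with the highest S100a9 value was thus also the highest for Mpo, Ngp and Prtn3 (2.43 CPM), the last a granule protease. Other listed markers were at their lowest of wild type in that library, Mmp9, Ctsg and Gfi1 among them. Wild type replicates 1, 2 and 3 held 8.54, 4.87 and 1.12 CPM of Cxcr2 and 0.651, 2.01 and 0.0783 CPM of Csf3r. S100a8 was at its lowest of the 6 libraries in wild type replicate 3.

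A few listed neutrophil markers had higher levels in the knockout libraries. Ctsg, cathepsin G, stood at 9.03 to 28 CPM in wild type against 33.3 to 77.9 CPM in the knockout, and Gfi1, a transcriptional repressor of blood lineages, at 3.29 to 9.05 CPM and 15 to 24.2 CPM. Cd177, a neutrophil surface protein, stood at 0.289 to 0.365 CPM and 0.979 to 2.28 CPM. Summed over the 25 markers, the list reached 57.9 to 84.9 CPM in wild type against 86.6 to 110 CPM in the knockout. Most of it was Mmp9, a gelatinase of several cell types, Ctsg and Gfi1, but in knockout replicates 2 and 3 mostly Ctsg and Gfi1. Mmp9 stood at 18.7 to 33.1 CPM in wild type, and knockout replicates 1, 2 and 3 held 40, 0.266 and 1.14 CPM. None of the list's 13 tested genes, S100a8, S100a9, Lcn2 and Hp included, was called by edgeR (adjusted p at the 0.05 threshold over all genes). At an unadjusted p under 0.05, 2 were lower and 4 higher (6.86% and 8.68% of all genes tested), DESeq2 called 1 lower and 3 higher (2.79% and 3.39%), and limma-voom called 0 (0.0505%). Log2 fold changes were below 0 in 9 of the 13 (median -0.41), although the summed level was higher in the knockout. S100a8 and S100a9 are among those counted, so nothing is read from these counts.

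**Figure D2:**
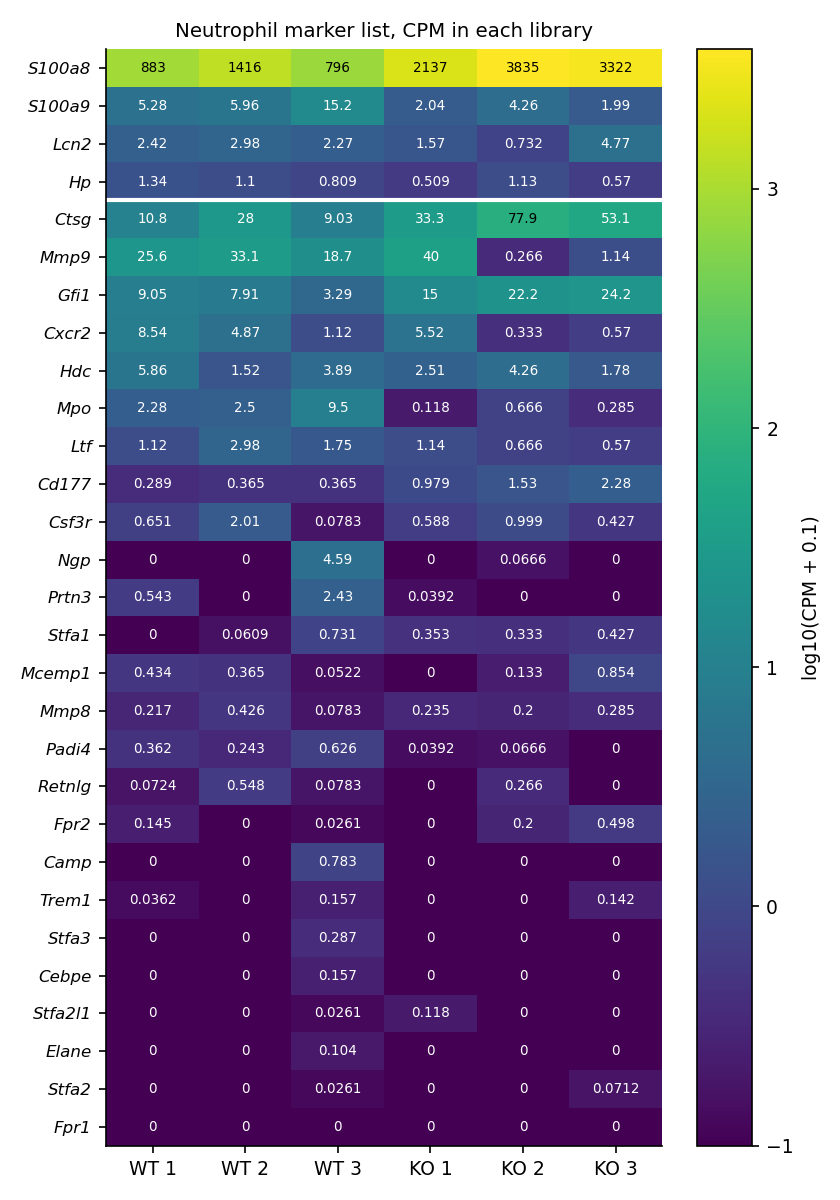
Heat map of the neutrophil marker list in the 6 libraries (columns), coloured by log10(CPM + 0.1) with the CPM printed in each cell; the white line separates S100a8, S100a9, Lcn2 and Hp from the 25 other markers, which are ordered by mean level. S100a8 reaches 796 to 3835 CPM while 18 of the 25 other markers average under 1 CPM, and Elane, Camp and Cebpe have counts in wild type replicate 3 alone.

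Saa3, Lcn2 and Hp were read at low levels with groups that overlapped. Saa3 (mm10 chromosome 7, 46711998 to 46715700) stood at 2.13, 3.10 and 1.12 CPM in wild type, against 1.10, 2.13 and 3.77 CPM in the knockout (log2 fold change 0.14 ± 0.62 SE). Lcn2 (chromosome 2, 32384633 to 32388252) stood at 2.42, 2.98 and 2.27 CPM in wild type, a narrow range, and at 1.57, 0.732 and 4.77 CPM in the knockout (-0.12 ± 0.68 SE). Its knockout libraries lay on both sides of wild type, and without knockout replicate 3 the log2 fold change was -1.13. Hp (chromosome 8, 109575128 to 109579172) stood at 1.34, 1.10 and 0.809 CPM in wild type, against 0.509, 1.13 and 0.570 CPM in the knockout (-0.56 ± 0.63 SE). With 8 to 87 counts per library for these 3 genes, each log2 fold change was smaller than its SE.

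Of the 8 genes, 4 (Orm1, Orm2, Orm3 and S100a9) had all knockout libraries below all wild type libraries, as had 9.39% of the 13848 genes tested, and 1 (S100a8) had them all above, as had 12.1%. All 8 passed the filter on low counts. The quasi-likelihood test of edgeR called 0 of the 8 and 0.0505% of all genes, and limma-voom likewise 0 of the 8 and 0.0505%. At an unadjusted p under 0.05 the same 4 were lower and S100a8 higher, against 6.86% and 8.68% of all genes. DESeq2 called Orm1, Orm2 and Orm3 lower and S100a8 higher, against 2.79% and 3.39% of all genes. With edgeR, Orm1 and Orm2 were called lower without wild type replicate 3 (0.0719% of all genes) and without knockout replicate 1 (3.27%), and S100a8 was called higher without knockout replicate 1 (1.77%). Since the genes were chosen on this contrast, nothing is read from these counts. Their median log2 fold change was -1.12, beside -0.04 over all genes tested.

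Each sample description carries a code whose meaning is not given. It begins with 32 in wild type replicate 1, and 5 libraries share the beginning 45. Among the 5 libraries with code 45 the log2 fold changes were -3.40 for Orm1, -3.81 for Orm2, -4.85 for Orm3, 1.48 for S100a8 and -1.94 for S100a9. Those of Saa3, Lcn2 and Hp were 0.14, -0.16 and -0.37. All 8 kept the sign they had over the 6 libraries.

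**Figure D3:**
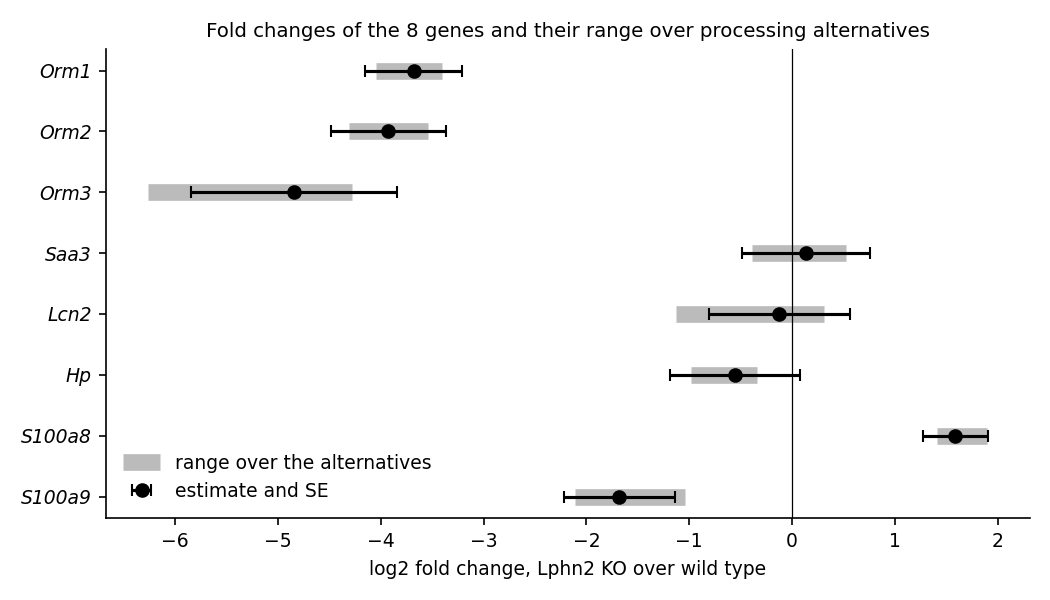
Log2 fold change of knockout over wild type (horizontal axis) of each of the 8 genes, with its SE as a black bar and the range over the processing alternatives, libraries left out included, as a grey band. The bands of Orm1, Orm2, Orm3, S100a8, S100a9 and Hp stay on 1 side of 0, and those of Saa3 and Lcn2 span 0.

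Other acute-phase proteins showed no common direction. Of 28 such genes 17 were tested, and edgeR called 0, with 1 lower and 4 higher at an unadjusted p under 0.05, 2 higher with DESeq2 and 0 with limma-voom. For this list and those below, the shares of all genes tested were 6.86% lower and 8.68% higher at that p. With DESeq2 they were 2.79% and 3.39%. Their median log2 fold change was -0.11. Lbp, the lipopolysaccharide-binding protein, stood at 657 ± 248 CPM in wild type against 1852 ± 453 CPM in knockout (SD, n = 3 each; log2 fold change 1.5 ± 0.32 SE, edgeR adjusted p = 0.166), with every knockout library above every wild type library. A2m, a broad protease inhibitor, stood at 905 ± 274 and 1714 ± 449 CPM (0.92 ± 0.29 SE) with overlapping groups. The metallothioneins Mt1 and Mt2, which bind zinc and are induced in inflammation, had log2 fold changes of -0.17 and -0.11. The 3 fibrinogen chains, named after their values were seen, were below wild type in every knockout library, and Fga stood at 14.7 to 20.4 CPM in wild type, while knockout replicates 1, 2 and 3 held 5.25, 0.0666 and 0 CPM.

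Negative acute-phase proteins, plasma proteins that the liver makes less of in inflammation, had log2 fold changes below 0 in all 6 tested of 8 listed (median -2.57). Of all 13848 genes tested, 7395 were below 0. EdgeR called 0 of the 6 (0.0505% of all genes), 4 were lower at an unadjusted p under 0.05 (6.86%), and DESeq2 called 1 (2.79%) and limma-voom 0 (0.0505%). Of these 4, Ahsg rests on wild type replicate 3, with 1884 counts there against 4 and 12 in wild type replicates 1 and 2. Alb and Serpina6, not tested, also had most of their counts in that library (1650 and 1218). The level of Trf, transferrin, was 98.8 ± 57 CPM in wild type against 25.5 ± 8.85 CPM in knockout (SD, n = 3 each), and Rbp4, the retinol carrier, at 111 ± 29.7 and 17 ± 18.6 CPM. Ttr, the thyroxine carrier, stood at 29.1 to 41.7 CPM in wild type, while knockout replicates 1, 2 and 3 held 14.3, 0 and 0.285 CPM, and Apoa1, of high-density lipoprotein, at 22.9 to 37.8 CPM and at 15.7, 0.333 and 0.214 CPM. Unlike the orosomucoids, Ttr, Apoa1 and Fga were far more abundant in knockout replicate 1 than in the other knockout libraries. Knockout replicates 2 and 3 had only 0 to 5 counts of each of these genes.

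Cytokines that induce acute-phase genes were read at unequal levels. Il6 stood at 0.0362 to 0.669 CPM over the 6 libraries, and Il22 and Il17a had no counts. Osm, oncostatin M, stood at 2.14 to 15.9 CPM in wild type against 2.28 to 11.2 CPM in the knockout, and Il11 at 2.79 to 3.65 CPM against 3.53 to 11.7 CPM. Both belong to the interleukin-6 family, had overlapping groups and were named after their values were seen. Of 20 cytokine and receptor genes 14 were tested, and edgeR called 0, while 0 were lower and 4 higher at an unadjusted p under 0.05, 3 higher with DESeq2 and 0 with limma-voom (median log2 fold change 0.52). Il1r2, the decoy receptor of interleukin-1, stood at 386, 392 and 154 CPM in wild type, against 645, 798 and 638 CPM in the knockout (1.16 ± 0.36 SE, edgeR adjusted p = 0.217). Tnfrsf1a, a receptor of tumour necrosis factor, stood at 61.1 ± 12.9 and 109 ± 20.7 CPM (0.84 ± 0.23 SE), and Lifr, which carries leukaemia inhibitory factor signals, at 40 ± 10.2 and 84.6 ± 19 CPM (1.08 ± 0.26 SE). Groups did not overlap for these 3 genes, while Il6st, the shared signalling chain gp130, had overlapping groups (-0.33 ± 0.26 SE).

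Transcription factors and feedback regulators of acute-phase genes had log2 fold changes above 0 in 12 of 14 tested (of 15 listed, median 0.71). EdgeR called 0, while 0 were lower and 7 higher at an unadjusted p under 0.05, DESeq2 called 5 higher and limma-voom 0. All knockout libraries were above all wild type libraries in 7 of the 14, beside 12.1% of all genes. The list also holds the kinase genes Jak1 and Jak2 and the progesterone receptor gene Pgr, which is a decidual stroma marker here too. Pgr (1.05 ± 0.32 SE) is counted in the 12 above 0, in the 5 called by DESeq2 and in both counts of 7. Cebpb, a C/EBP factor named for its part in interleukin-6 responses, stood at 300 ± 57.5 CPM in wild type against 621 ± 188 CPM in knockout (SD, n = 3 each; 1.05 ± 0.28 SE, edgeR adjusted p = 0.183). Stat3 stood at 648 ± 181 and 1037 ± 149 CPM (0.68 ± 0.25 SE), and Nfkbia, which encodes the NF-kB inhibitor IkBa, at 146 ± 22.1 and 320 ± 103 CPM (1.13 ± 0.28 SE). Cebpa, with overlapping groups, stood at 157 ± 35.4 and 222 ± 30.6 CPM (0.50 ± 0.21 SE). Several of these factors are also transcribed in decidual cells. Of the 15 decidual stroma markers, 9 had log2 fold changes above 0, among them Des, named after its values were seen, at 1196 ± 283 and 3024 ± 877 CPM. Their part in these values was not tested.

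Receptors and partners of the 8 proteins were mostly similar in level between groups. Of 16 genes 14 were tested, and edgeR called 0, while 0 were lower and 3 higher at an unadjusted p under 0.05, 1 higher with DESeq2 and 0 with limma-voom (median log2 fold change 0.27). The abundant ones were Bsg, basigin, which binds S100a9 (-0.12 ± 0.18 SE), Scarb1, a lipoprotein receptor that also binds serum amyloid A (-0.84 ± 0.70 SE), Lrp1, a scavenger receptor (0.25 ± 0.24 SE), and Hmox1, the haem-degrading enzyme downstream of haemoglobin uptake (0.13 ± 0.43 SE). Tlr4, a receptor for S100a8 and S100a9 named after its values were seen, stood at 13 ± 3.28 CPM in wild type against 23.9 ± 7.55 CPM in knockout (0.89 ± 0.30 SE, edgeR adjusted p = 0.249). Cd163, the macrophage receptor for haptoglobin bound to haemoglobin, was read at 0 to 0.533 CPM.

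The other S100 genes did not share the S100a8 pattern. Of 15 listed 11 were tested, and edgeR called 0, with 2 lower and 0 higher at an unadjusted p under 0.05, 1 lower with DESeq2 and 0 with limma-voom (median log2 fold change 0.24). S100a6, calcyclin, was more abundant than S100a8, at 6076 ± 1796 CPM in wild type against 8233 ± 1708 CPM in knockout (SD, n = 3 each; 0.44 ± 0.28 SE). S100a4 stood at 1097 ± 296 and 1162 ± 168 CPM (0.08 ± 0.24 SE), and S100a10 and S100a11 had log2 fold changes of 0.62 and 0.60. The groups overlapped in these 4 genes. Among other lipocalins, relatives of Lcn2 and the orosomucoids, 3 of 13 were tested, edgeR called 0, and 1 was lower at an unadjusted p under 0.05. DESeq2 called 1 lower and limma-voom 0. Ptgds, which makes prostaglandin D2, stood at 10.5, 23.2 and 11.7 CPM in wild type, against 0.744, 0 and 1.28 CPM in the knockout (-4.48 ± 0.95 SE, edgeR adjusted p = 0.166), Apom, an apolipoprotein, had a log2 fold change of -3.04, and C8g, of complement, one of -0.21. Neutrophil chemokines were low: of 8 genes 5 were tested, edgeR called 0, with 2 lower at an unadjusted p under 0.05 and 0 with DESeq2 or limma-voom. Pf4, platelet factor 4, was the most abundant, at 6.19 ± 3.77 and 2.13 ± 1.06 CPM, followed by Cxcr2, Cxcl2 and Ppbp with log2 fold changes of -1.14, -0.66 and -2.49.

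**Figure D4:**
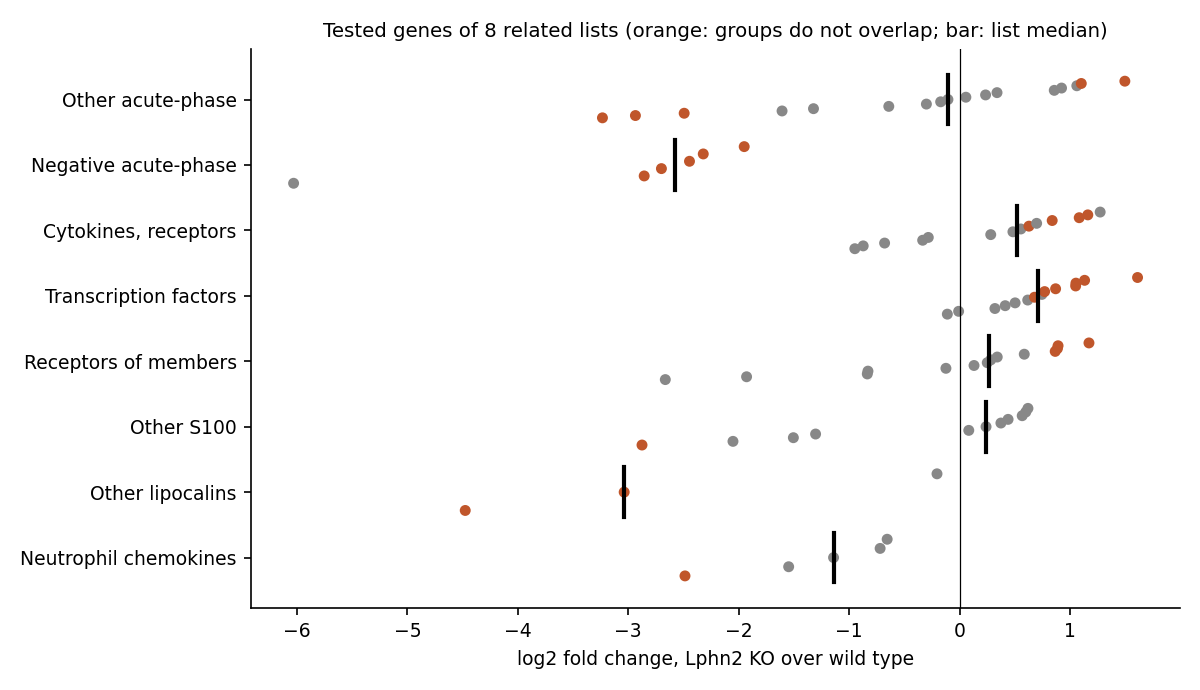
Log2 fold change of knockout over wild type (horizontal axis) for each tested gene of the 8 related lists (rows); orange points are genes whose knockout and wild type libraries do not overlap, grey points are the rest, and black bars are list medians. The transcription factor list lies mostly above 0 with a median of 0.71, and the negative acute-phase list lies below 0 with a median of -2.57.

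The genes whose course over the 6 libraries was nearest to that of a member were found by the root mean square difference in log2 CPM after each gene's own mean was subtracted, among 9539 genes that averaged at least 5 CPM. This is a description over 6 libraries that share their normalisation. Nearest to S100a8 were Bcl3, an atypical IkB protein, at 0.0778, Gzmb, granzyme B, at 0.0830 and Lbp at 0.0833. Bcl3 stood at 35.6, 48.4 and 31.7 CPM in wild type, against 81.5, 147 and 125 CPM in the knockout, so its libraries have the same order as those of S100a8. Markers of uterine natural killer cells, to which Gzmb belongs, summed to 1201, 2197 and 936 CPM in wild type, against 2967, 5412 and 4278 CPM in the knockout, also in that order, with Gzmf and Gzmd the most abundant. Their part in the S100a8 values was not tested.

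Nearest to Orm1 were S100a3 at 0.453, Kcnj12, a potassium channel gene, at 0.478 and Crct1, a gene of the epidermal differentiation cluster, at 0.479. Wild type replicates had S100a3 at 20.6, 21.9 and 8.56 CPM, against 2.94, 1.33 and 2.63 CPM in the knockout. Nearest to S100a9 was Hba-a1, adult alpha globin, at 0.140, whose counts equal those of Hba-a2 and which stood at 1497, 1812 and 4980 CPM in wild type, against 697, 1232 and 767 CPM in the knockout. Rtn2, a reticulon, at 0.239 and Pgm2l1, a sugar phosphate enzyme, at 0.272 came next. For S100a9 and Hba-a1 alike, wild type replicate 3 was the highest library and knockout replicate 2 the highest of its group. The part of blood in the S100a9 values was not tested.

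**Figure D5:**
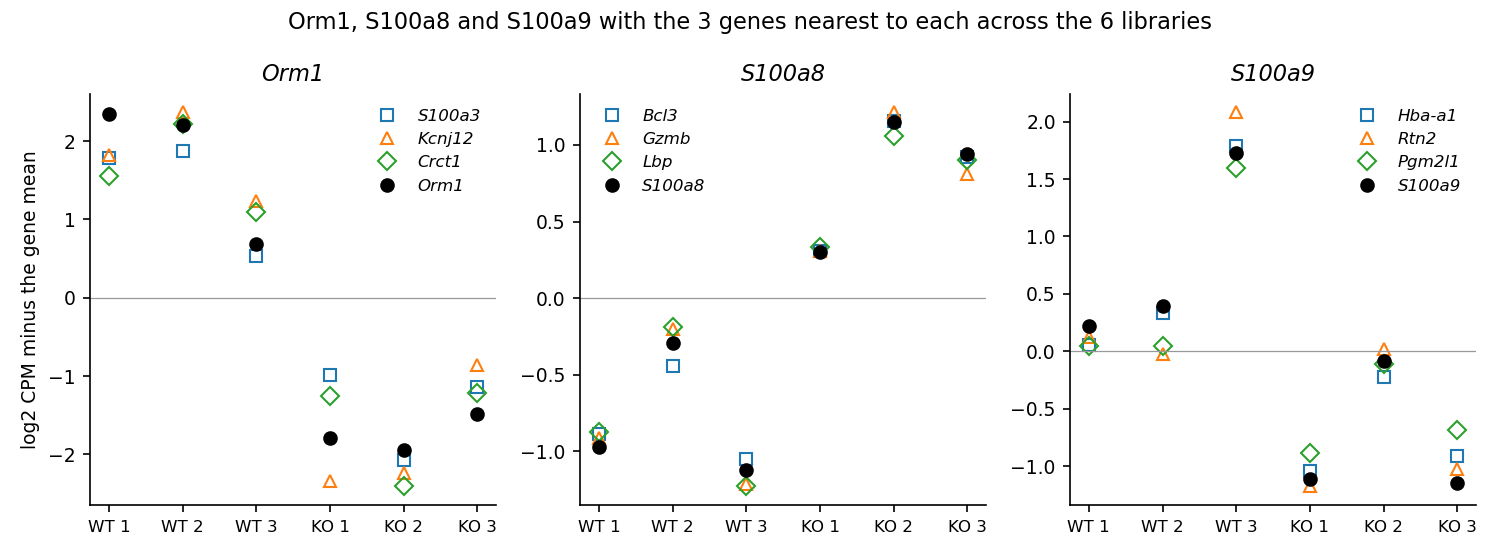
Log2 CPM minus the gene's own mean (vertical axis) in the 6 libraries (horizontal axis, WT for wild type and KO for Lphn2 knockout) for Orm1, S100a8 and S100a9 (black points) and the 3 genes nearest to each (open symbols). S100a8, Bcl3, Gzmb and Lbp keep close together in all 6 libraries, and S100a9 and its neighbours have their highest value in wild type replicate 3.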

How the data were processed

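RNA was measured in 6 libraries of mouse samples, 3 wild type and 3 Lphn2 knockout, made with the Lexogen QuantSeq kit from 500 ng of total RNA, per the labels' protocols. The authors deposited raw counts, whole numbers by gene symbol, with a table for each library. Bowtie2, edgeR and the build mm10 are named in the submitters' processing notes. Not given in the sources used here are versions, annotation, counting program and strand handling.

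Genes were kept with filterByExpr (minimum count 10) of edgeR 4.0.16 in R 4.3.3, which left 13848, scaled by TMM and compared with the quasi-likelihood test without covariates, Benjamini-Hochberg adjusted over all of them with a threshold of 0.05. CPM are counts divided by the TMM-scaled total and scaled to a common sum. SE is the fold change divided by the square root of the F statistic. DESeq2 1.42.0, limma-voom (limma 3.58.1), other scalings and filters, a replicate block and libraries left out were alternatives. The fit was tested on simulated data. Intervals from depth cover counting error only. The genes and lists were chosen with earlier results of these data known. Lists were described by their genes called and, of the rest, up to 4 most abundant. Positions come from GENCODE M21. Sequences were aligned with Biopython 1.88 (Python 3.11.15), and figures made with matplotlib 3.10.9. Of the pairs of libraries none agreed within sampling noise (chi-square per degree of freedom 23 to 296).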

Additional observations from a re-analysis of the deposited data

How the results depend on the processing

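Over 16 alternatives the sign of the log2 fold change held for Orm1, Orm2, Orm3, S100a8, S100a9 and Hp in each alternative that tested them, and it changed for Saa3 in 2 and for Lcn2 in 3. When 5 CPM were required in at least 3 libraries, 3 of the 8 genes were left. Of 123 fold changes of the 8 genes under an alternative, 121 moved by less than the SD between replicates, and of 287 list medians 269 did. The count of genes called lower, 7 in all, was 387 with DESeq2, 0 with the replicate block and 0 with 1 symbol per set of identical counts, and it ranged from 0 to 466 over the libraries left out. The 466 came from the fit that omits knockout replicate 1, and omitting wild type replicate 2 gave 11. Wild type replicate 1 and knockout replicates 2 and 3 each gave 0 when omitted. The count called higher, 0 in all, was 470 with DESeq2 and 252 without knockout replicate 1, with 0 as the lowest over libraries left out. The median of the 8 genes was -1.71 with the stricter filter, which tests fewer genes, and ranged from -1.55 to -0.89 over libraries left out. The median of other acute-phase proteins turned on the filter and the design: it was -0.99 with no filter, 0.21 with the stricter filter, 0.21 with the replicate block and -0.13 to 0.26 over libraries left out. That of negative acute-phase proteins ranged from -5.28 to -2.08 over libraries left out, that of cytokines and receptors was 0.080 with no filter, and that of other lipocalins was -5.23 with limma-voom. Where no cause is given, the cause was not tested. Replicate numbers are shared between the groups, but deviations of same-numbered libraries from their group means correlated at 0.127, -0.0238 and 0.0706 over 13848 genes, so the numbers were not taken to pair the libraries. With the replicate block the log2 fold change was -3.54 for Orm1, 1.59 for S100a8 and -1.57 for S100a9. Depth limits Saa3, Lcn2 and Hp in all libraries and the orosomucoids in the knockout.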
